A study of Bos taurus with 8 samples.

Results

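The transcripts of the semitendinosus muscle of 4 Limousin bulls were described from the Limousin channel of 8 bovine 2-colour Agilent arrays. The semitendinosus is a large, mostly fast-contracting muscle of the hind leg, and the Limousin is a lean beef breed that the study used as its control. All 12 bulls of the study were 15 months old, and total RNA was extracted with Trizol, per the labels. On 4 arrays a Limousin bull was labelled with Cy3 and hybridised beside a Hereford bull in Cy5. On the other 4 arrays the same Limousin animals were labelled with Cy5 beside Holstein-Friesian bulls in Cy3. Hereford and Holstein-Friesian stand for well-marbled beef in the design, and no group carried a treatment. The 8 Limousin readings, of 16 channel readings in all, therefore hold each of the 4 bulls 2 times, once in each dye and once on each slide. Bulls were matched between slides by the number in the sample titles. The labels do not say whether both readings of a bull came from 1 extract.

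The level of a probe was its percentile rank of brightness among the 21475 non-control probes of a channel, so that 100 is the brightest. The 2 readings of a bull were averaged, and means ± SD are over the 4 bulls. A named gene was represented by its brightest probe, which gave 7709 genes on 8215 probes. Brightness depends on the probe as well as on the amount of its transcript. Of 478 genes with several probes, 324 (67.8%) had them in more than 1 of the brightness bands used here, with a median gap of 21.9 rank points between the brightest and the dimmest. The order below is therefore an order of probes, and rank differences between genes are no ratios of their transcripts.

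Skeletal muscle is built of multinucleate fibres that hold the contractile apparatus, the enzymes of glycolysis and mitochondria in proportions that depend on fibre type. Fast fibres rely on stored glycogen and creatine phosphate, and slow fibres on oxidation with myoglobin as their oxygen store. Capillaries, connective tissue, immune cells, nerve and fat cells lie between the fibres, and the fat cells within the muscle form the marbling of beef. In RNA of whole tissue, fewer cells of a type and less RNA per cell cannot be told apart.

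Of the 21475 probes, 14616 (68.1%) were well above background in all 8 Limousin readings, 3177 (14.8%) in none and 3682 (17.1%) in 1 to 7. Between 14932 and 17096 probes passed in a single reading, and no spot of a non-control probe was saturated on any array. The top band, from rank 95, held 1052 probes with a median processed signal of 25398 units. The high band (rank 75 to 95) held 4291 probes at a median of 2766, the middle band (40 to 75) 7483 at 282, and the low band 5472 at 23.8. The 3177 probes above background in no reading had a median signal of 5.06. The share of probes with a named gene fell along these bands from 62.4% at the top to 26.3% among probes not above background. Signal was concentrated in few probes: the brightest 1% (215 probes) carried 43.8% ± 0.77 (SD, n = 4 bulls) of all processed signal.

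The 25 brightest named genes were those of fast contraction, glycolysis and oxygen storage, with few exceptions. They carried 10.99% ± 0.61 (SD, n = 4 bulls) of the signal between them. MB, which encodes myoglobin, led with a rank of 99.98 ± 0.014, and its processed signal had a lowest reading of 330867, a median of 439662 and a highest of 591048 units. TNNC2, the calcium-binding troponin of fast fibres, followed with a lowest reading of 324743, a median of 421467 and a highest of 659948. Contractile and Z-disc genes made up much of the rest: MYOZ1, a Z-disc protein of fast fibres, TPM1, ACTA1, the skeletal actin, LDB3, MYL1, PDLIM7, the fast myosin heavy chains MYH1 and MYH2, and ACTN3. ATP2A1, the calcium pump of fast fibres, belonged to them too. The glycolytic enzymes were ALDOA, GAPDH, TPI1, ENO3, PGAM2, PGK1 and LDHA, with PGM1, which links glycogen to glycolysis, and AK1, which passes phosphate between adenine nucleotides. FTH1, the ferritin heavy chain, NMRK2, a kinase of nicotinamide riboside in muscle, and RPLP0, a ribosomal protein, were also in the set.

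**Figure D1:**
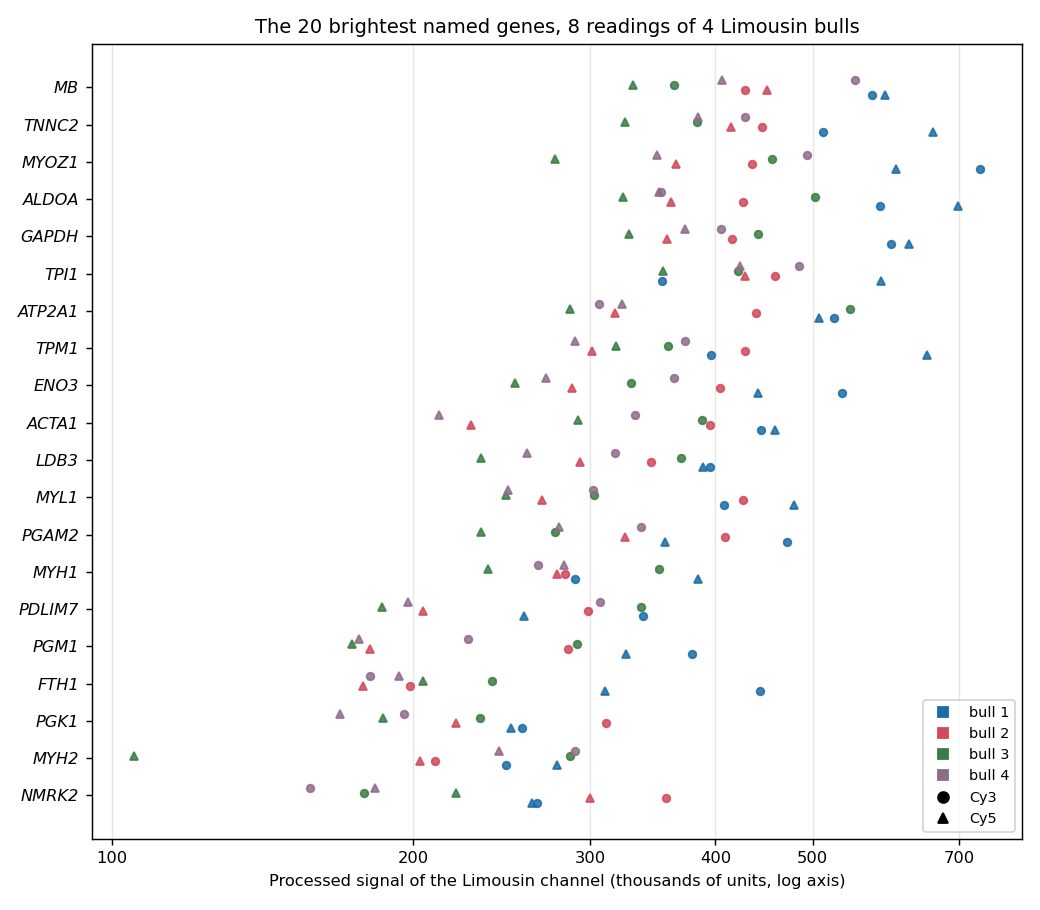
Processed signal (kilounits, log axis) of the 20 brightest named genes in each of the 8 Limousin readings; colours mark the 4 bulls and shapes the dye. MB lies between 330867 and 591048 units, and NMRK2, at the bottom, between 157706 and 357441.

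The labelled tissue was checked against its markers. Of 14 skeletal muscle markers, 12 had a named probe, all 12 were above background in all 8 readings and 10 lay in the top band. CHRNA1, a subunit of the acetylcholine receptor, was the dimmest of them at rank 67.8 ± 4.32. Genes of fast fibres had a median rank of 99.91 over the 10 with a probe, against 63.1 over all named genes, and 8 of them lay in the top band. MYOZ3, another Z-disc protein, was the exception at 60.7 ± 3.17. Genes of slow fibres were also bright, with a median of 98.1 and 7 of 10 in the top band. MYL2, the slow regulatory light chain, stood at 99.75 ± 0.082 and MYH7, the slow myosin heavy chain, at 99.72 ± 0.021. The slow calcium pump ATP2A2 was the dimmest of the slow list at 82.1 ± 1.85. Sarcomere and Z-disc genes shared by both fibre types had a median of 99.4, with 11 of 14 in the top band, and MYBPH as their dimmest at 53.2 ± 10.3.

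Most genes of glycolysis and mitochondrial respiration lay in the top band. Glycolysis had a median rank of 99.7 over 15 genes, 10 of them in the top band, and the brain-type aldolase ALDOC was the dimmest at 52.4 ± 2.20. Of 44 genes of the respiratory chain and ATP synthase, 39 lay in the top band and the other 5 in the high band, with a median of 98.3. ATP5F1B, the catalytic subunit of ATP synthase, reached 99.8 ± 0.037, and UQCRQ, of the cytochrome bc1 complex, was the dimmest at 79.2 ± 2.18. The citric acid cycle had a median of 98.5 with 12 of 15 genes in the top band. High-energy phosphate genes had a median of 98.7, and both creatine kinases, CKMT2 of mitochondria and CKM of the cytosol, stood above 99. Glycogen genes had a median of 97.3 over 9 genes, with the phosphorylase PYGM at 99.4 ± 0.055. Fatty acid oxidation was lower, with a median of 92.5 and 5 of 19 genes in the top band. UCP3, an uncoupling protein of muscle mitochondria, led that list at 98.7 ± 0.19, and the nuclear receptor PPARD closed it at 37.4 ± 0.56.

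Protein synthesis and turnover were bright as well. Of 55 cytosolic ribosomal protein genes, 51 lay in the top band, with a median rank of 99.3, and RPL7 was the dimmest at 70.9 ± 1.27. The 51 mitochondrial ribosomal protein genes had a median of 89.6, and only 5 of them reached the top band. Proteasome subunits had a median of 96.7 over 28 genes, from PSMC5 at 98.8 ± 0.083 down to PSMB9, an interferon-inducible subunit, at 66.9 ± 3.86. Translation factors had a median of 97.9 over 23 genes, and chaperones one of 94.1 over 28, led by the small heat shock protein HSPB8. TRIM63, a ubiquitin ligase of muscle wasting, stood at 98.0 ± 0.33. Among regulators of the muscle lineage, MYOD1 (95.03 ± 1.46) and MYF6 (92.4 ± 1.41) were bright, while MYF5, which acts in muscle precursors, lay in the low band at 36.8 ± 1.84.

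**Figure D2:**
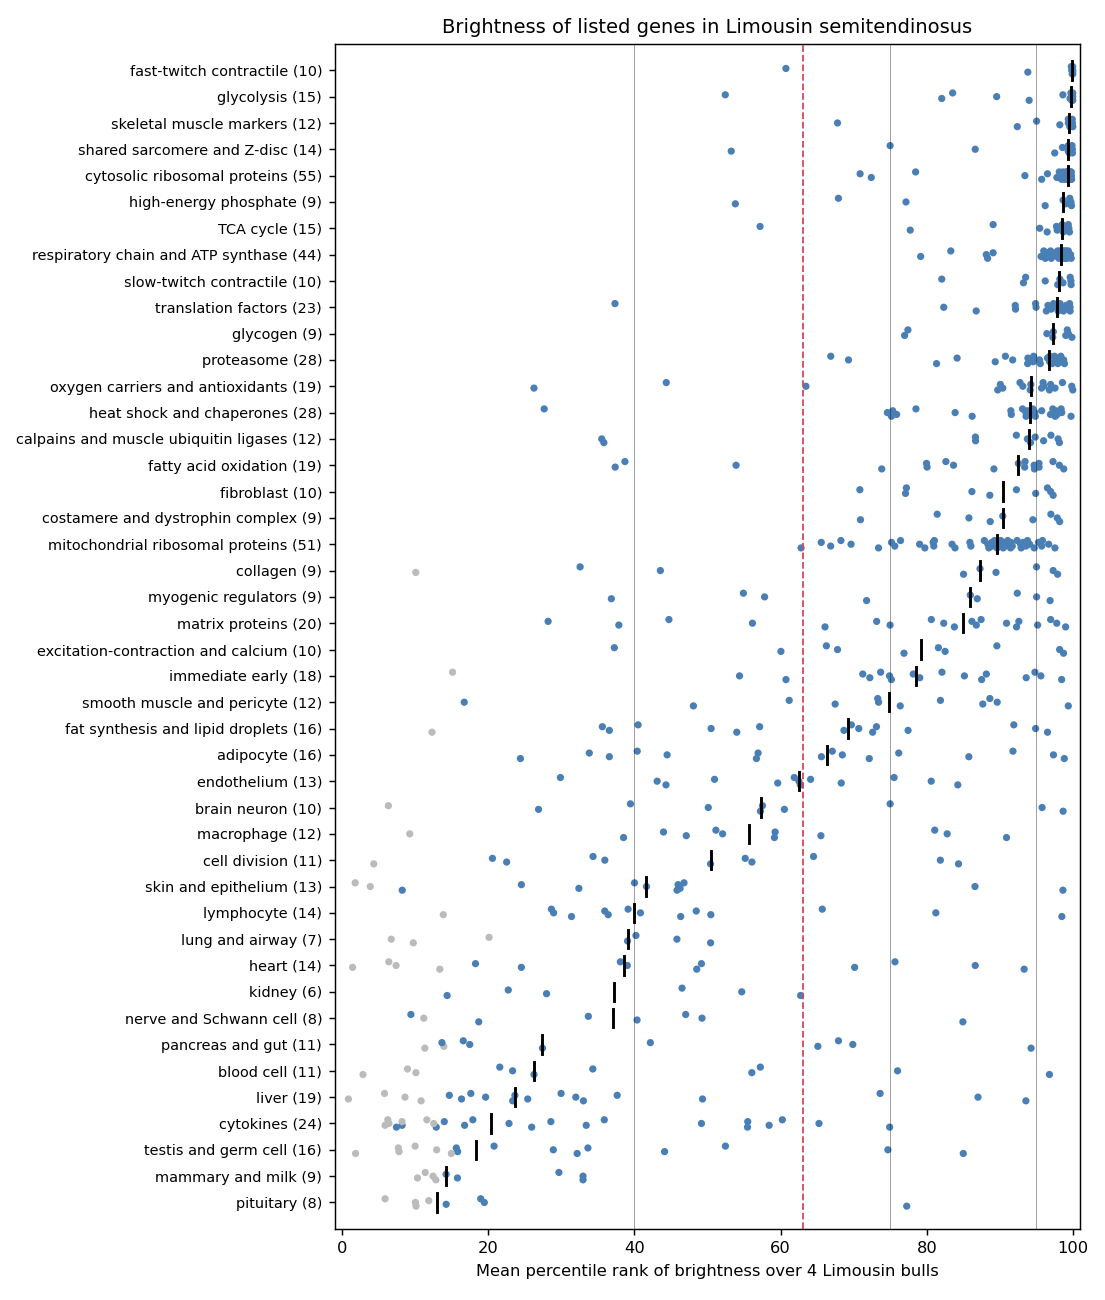
Mean percentile rank over the 4 Limousin bulls of each listed gene (points), by list, with the number of genes in parentheses and the list's median as a black bar. Grey points are genes whose probe was above background in no reading, thin lines mark ranks 40, 75 and 95, and the dashed line is the median of all named genes at 63.1; muscle and energy lists sit at the right, and pituitary and milk genes at the left.

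Genes of fat cells spread over nearly the whole range of brightness in this lean muscle. Of 22 adipocyte genes, 16 had a probe, with a median rank of 66.3: 2 lay in the top band, 3 in the high, 8 in the middle and 3 in the low band. CEBPA, a transcription factor of fat cells that other tissues also express, was the brightest at 98.8 ± 0.11. LPL, the lipoprotein lipase that muscle fibres make too, stood at 91.8 ± 1.32, and CFD, the fat-cell protease adipsin, at 85.8 ± 1.12. FABP4, which carries fatty acids inside adipocytes, lay at 68.4 ± 12.05, with a lowest signal of 191, a median of 626 and a highest of 2690 units. PPARG, the master regulator of fat-cell formation, lay at 56.9 ± 2.67 and the lipid-droplet coat protein PLIN1 at 44.5 ± 0.93. LEP, the fat-cell hormone leptin, was the dimmest at 24.4 ± 1.21, and 5 of its 8 readings were above background. The SD of FABP4 reflects differences between bulls that are given below with the other such genes. PPARG and PLIN1 are named for their known roles, outside the rule for named genes. Of 16 genes with a probe for fat synthesis and lipid droplets, the acyltransferase AGPAT2 (96.5 ± 0.43), PLIN5, which coats droplets in oxidative tissues (94.9 ± 1.07), and the desaturase SCD (91.9 ± 0.93) were the brightest. The second probe of SCD ranked 69.5. ELOVL5, a fatty acid elongase, was above background in no reading.

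Genes of connective tissue were bright, those of vessels and macrophages were middling, and those of lymphocytes and nerve were dimmer. Collagen genes had a median rank of 87.3 over 9 genes. The fibrillar collagens COL3A1 (97.9 ± 0.69), COL1A1 (97.3 ± 1.13) and COL1A2 (95.01 ± 1.87) lay at or near the top band, and COL11A1, a cartilage collagen, was above background in no reading. Fibroblast genes had a median of 90.4, and SPARC, a collagen-binding matrix protein, stood at 99.0 ± 0.37. The 13 endothelial genes had a median of 62.5, close to that of all named genes, and ran from ROBO4, a guidance receptor of vessels, at 84.2 ± 4.67 to the receptor FLT1 at 29.9 ± 1.31. Smooth muscle and pericyte genes had a median of 74.9, led by DES, which striated fibres share. Macrophage genes had a median of 55.6: the complement gene C1QA led with 90.9 ± 2.82, and ITGAM, an integrin of myeloid cells, was above background in no reading. Lymphocyte genes had a median of 39.97 and nerve and Schwann cell genes one of 37.0. Genes of cell division had a median of 50.4, with BUB1B, of the spindle checkpoint, above background in no reading.

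The middle of the range is illustrated by the 6 named genes nearest rank 50. MYBPHL, a relative of myosin-binding protein C, had a lowest signal of 104, a median of 153 and a highest of 207 units. POLD3, a subunit of DNA polymerase delta, ranged from 104 to 215 units, and APLN, which encodes the peptide apelin, from 97.1 to 210. ARMC2, which flagella require, ran from 78.3 to 376 and GDF2, a growth factor made by the liver, from 101.1 to 196. MGC157368, an uncharacterised locus, completed the set. All 6 were above background in all 8 readings.

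Genes that mark other tissues were mostly dim. Of 156 genes in 10 lists of other tissues, 112 had a named probe. Of these, 30 were above background in no reading, 41 lay in the low band, 29 in the middle, 9 in the high and 3 in the top band. The median rank of the 112 was 27.7, against 63.1 over all named genes. Dim did not mean undetected: 50 of the 112 were above background in all 8 readings, against 5946 of all 7709 named genes. Among the 30 were the heart hormones NPPA and NPPB with the cardiac factors NKX2-5 and TBX20, the milk proteins CSN1S1, CSN1S2 and CSN3 with BTN1A1, and the surfactant proteins SFTPA1, SFTPB and SFTPC. The pituitary hormones PRL and FSHB with the receptor GHRHR, the sperm proteins PRM1, PRM2, TNP1 and SMCP with the germ-cell genes DDX4 and BMP15, and the liver genes TAT, F9, APOH and SERPINA1 belonged to them too. The neuron list had a median rank of 57.4 and 8 of 10 genes above background in all 8 readings. Only its STMN2 was among the 30. Others of the 30 were GCG and FABP1 of the gut list, and DSG1 and ESRP1 of epithelia. Of 24 cytokine genes with a probe, 6 were likewise above background in no reading: IL4, IL5, IL6, IL12A, CSF2 and CXCL8. In the blood cell list ALAS2, S100A9 and SLC4A1 were above background in no reading. CD28 of lymphocytes, PMP2 of Schwann cells and FOSL2 of the immediate early list were not above it either.

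A few probes went against this pattern. TH, the rate-limiting enzyme of catecholamine synthesis, stood at rank 98.7 ± 0.12, with a lowest signal of 36914, a median of 44906 and a highest of 66019 units. SFN, a 14-3-3 protein of epithelia, stood at 98.6 ± 0.12, and SLC17A7, a glutamate transporter of nerve terminals, at 95.8 ± 0.26. GAST, the stomach hormone gastrin (94.3 ± 0.36), APOA2, an apolipoprotein of the liver (93.6 ± 0.49), and HAND1, a heart factor (93.3 ± 0.71), lay in the high band. The others of the high band were HPX (87.0 ± 2.05), ACTC1, the heart actin that muscle precursors also express (86.6 ± 3.69), KRT14 (86.6 ± 0.52), ODF1 (84.99 ± 0.61), POMC (77.3 ± 4.64) and GJA1 (75.6 ± 3.71). CD4, of helper T cells, had a probe at 98.5 ± 0.093, while its other probe ranked 20.9 and was above background in 2 of 8 readings. The haemoglobin genes were as far apart: HBA, the alpha chain, ranked 96.8 ± 0.65 and HBB, the beta chain, 26.2 ± 1.47, above background in 6 of 8 readings. Whether such probes measure the gene they are named for was not tested.

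The 2 readings of a bull were more alike than readings of different bulls. After the mean of each dye was taken off, deviations across the 16530 probes above background in at least 4 of the 8 readings correlated with a Pearson r of 0.40 for bull 1, 0.87 for bull 2, 0.75 for bull 3 and 0.62 for bull 4. The 12 pairs of different bulls gave r between -0.36 and -0.02. These correlations run across probes, which are not independent replicates, and 4 deviations that sum to 0 correlate negatively between bulls by construction. Bull number and array position on the slide went together on both slides. The partner channels of the same positions, which held unrelated Hereford and Holstein-Friesian bulls, gave r between -0.19 and 0.32 for equal numbers.

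**Figure D3:**
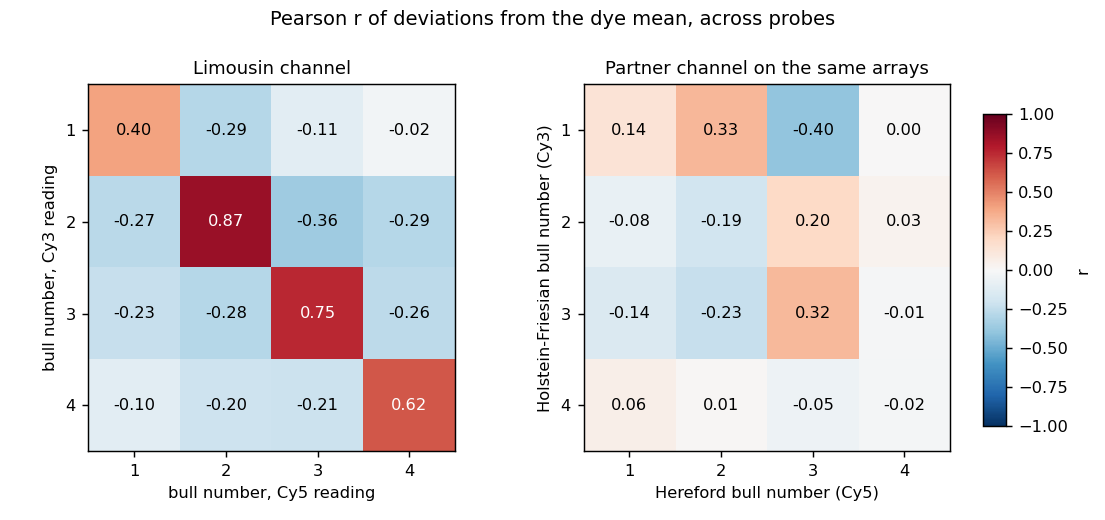
Pearson r, across 16530 probes, between deviations from the dye mean of each Cy3 reading and each Cy5 reading, for the 4 Limousin bulls (left) and for the Hereford and Holstein-Friesian bulls in the partner channels of the same arrays (right). On the left the diagonal, where both readings are of 1 bull, runs from 0.40 to 0.87 and all other cells are below 0; on the right no cell exceeds 0.33.

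Dye and slide went together, so their effects on brightness cannot be told apart. Between the 4 Cy5 and the 4 Cy3 readings, limma called 1 of 16530 probes (adjusted p under 0.05), and 1669 had an unadjusted p under 0.05. That probe, singled out here after its value was seen, is of RBX1, a subunit of ubiquitin ligases. Since both readings come from the same 4 animals, the fit with the bull as a block is the paired one, and it called 798 probes (4.83%). That count was 5674 without bull 1. It was 0 in limma without bull 2, bull 3 or bull 4, where 2242, 2423 and 3029 probes had an unadjusted p under 0.05, and 0 with processed signals scaled to the 75th percentile, where 4124 had one. The largest differences among named genes were those of PEX16, a peroxisome protein, which was brighter in Cy5 by 1.53 (log2, adjusted p = 0.039 with the block in limma), MAP4K1 (1.07, adjusted p = 0.062) and EPN3 (0.89, adjusted p = 0.12). In the other direction IQCD was dimmer in Cy5 (-0.74, adjusted p = 0.20 with the block in limma), as were JUNB (-0.68, adjusted p = 0.039) and ESAM (-0.66, adjusted p = 0.034).

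The 4 Limousin bulls differed from each other in many transcripts. The question was which genes varied between animals of 1 breed, age and muscle by more than the spread between a bull's 2 readings. limma's moderated F test over the bulls, with dye and slide as a term, called 4341 of 16530 probes (26.3%, adjusted p under 0.05). Since its error is the spread between 2 readings of a bull, the p-values speak of these 4 animals and not of the breed. The count moved when 1 bull was left out. It was 7865 (47.6%) without bull 1, 918 (5.55%) without bull 2, 1628 (9.85%) without bull 3 and 2679 (16.2%) without bull 4. Each of these fits also has fewer readings, and the cause of the changes was not tested. The median range between the highest and the lowest bull was 0.55 (log2) over called probes and 0.28 over all tested ones. Bull 2 was the highest in 33.0% of the called probes and bull 4 in 17.2%. Calls were most frequent in the high band (39.7%) and least in the low band (4.35%). The background correction used for this test compresses low levels, and its part in this contrast was not tested. Among named genes, 1999 of 6502 were called (30.7%), of which 202 spanned at least a 2-fold range.

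Of the 25 brightest genes, 3 were called between bulls by limma, against 30.7% of all named genes and 31.6% of top-band probes. Among the 3 were MYOZ1 and AK1 with adjusted p of 0.036 and 0.030. Both lost their call under several alternatives, with adjusted p up to 0.30 and 0.78. Of the 10 genes of smallest p, GSTM3 and CCN1 lay in the high band and the others in the middle band. BOLA-DQA5, the alpha chain of a class II molecule that presents antigen, was called with the smallest p of all named genes. Its log2 brightness was 8.80 in bull 1, 5.96 in bull 2, 8.63 in bull 3 and 9.38 in bull 4, and neither reading of bull 2 was well above background. Bull 4 was at least 9.93-fold brighter than bull 2 (limma, adjusted p = 7.06e-05), where the bound sets bull 2 at the dimmest probe well above background in each reading. BOLA-DQB, a beta chain of the same class and named here after its values were seen, read 7.92, 6.02, 8.04 and 8.53 in bulls 1 to 4. Neither of its readings in bull 2 was well above background, so that bull 4 was at least 5.49-fold brighter (adjusted p = 0.0010).

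FABP4 varied most among the genes of fat cells. It read 8.17 in bull 1, 8.70 in bull 2, 7.41 in bull 3 and 10.24 in bull 4 (log2), a 7.13-fold range (limma, adjusted p = 0.00025). After the mean of each dye was taken off, the widest gap between 2 readings of a bull was 0.067 (log2), and none of the 4 bulls overlapped another. CIDEC, which enlarges lipid droplets and was picked after its values were seen, read 7.30, 8.40, 6.95 and 8.36, with bulls 2 and 4 high and bulls 1 and 3 low (adjusted p = 0.0012). PPARG was called as well, at an adjusted p of 0.013, whereas PLIN1 (adjusted p = 0.55) and LEP (0.69) were not. In all, 6 of 16 adipocyte genes were called, against 30.7% of all named genes. The count was 10 without bull 1, 2 without bull 2 and 3 without bull 3. In the same order, 47.6%, 5.55% and 9.85% of all tested probes were called. The list's median deviation from the 4-bull mean lay between -0.042 and 0.024 in every bull.

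MX1 and 4 other genes that interferon is known to induce read lowest in bull 3. They were not drawn from a list, other such genes were not counted, and bull 3 was the lowest in 1745 of all 6502 named genes tested. MX1, an antiviral GTPase, read 9.95 in bull 1, 9.77 in bull 2, 7.37 in bull 3 and 9.37 in bull 4 (log2, adjusted p = 0.00031 in limma). UBA7, which activates the ubiquitin-like ISG15, read 9.99, 9.42, 7.95 and 9.30 (adjusted p = 0.00068). ISG15 itself read 10.69, 10.09, 7.27 and 9.21, a 10.67-fold range (adjusted p = 0.0011). XAF1, at 9.30, 9.29, 7.66 and 8.80, and RTP4, at 10.07, 10.06, 8.33 and 9.30, had adjusted p of 0.0010 and 0.0012. In all 5 genes bull 3 was the lowest in both dyes. MX1, UBA7 and, by its range, ISG15 came in by the rule for named genes, and XAF1 and RTP4 were picked after their values were seen.

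Other genes of smallest p had other bulls at their extremes. SAA3, an acute-phase amyloid protein, read 9.48 in bull 1 against 7.28, 7.11 and 6.91 in bulls 2 to 4 (log2, adjusted p = 0.00073 in limma). GSTM3, a glutathione transferase, was highest in bull 3, at 10.85, 11.94, 12.95 and 10.78 (adjusted p = 0.00055). SFRP4, a secreted Wnt antagonist, was highest in bull 4, at 8.68, 7.86, 8.82 and 10.26. ANXA8L1, an annexin, read 9.38, 8.38, 7.82 and 9.89, and CCN1, a matrix protein of the immediate early list, 9.23, 10.31, 8.29 and 9.56. PRSS2, a trypsinogen, read 7.71, 6.33, 6.49 and 9.07. KLK12, a kallikrein, was at least 6.85-fold brighter in bull 4 than in bull 2, where neither reading was well above background (adjusted p = 0.0011). PFKFB3, which makes the activator of phosphofructokinase and was picked after its values were seen, was the widest of the glycolytic genes at 13.49, 15.05, 15.64 and 14.61 (adjusted p = 0.0010). Apart from BOLA-DQB, whose adjusted p rose to 0.080 under 1 of 7 alternatives, and PPARG, which was not retested, the genes given here bull by bull from BOLA-DQA5 on kept an adjusted p under 0.05 in limma under each alternative that gave a value.

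**Figure D4:**
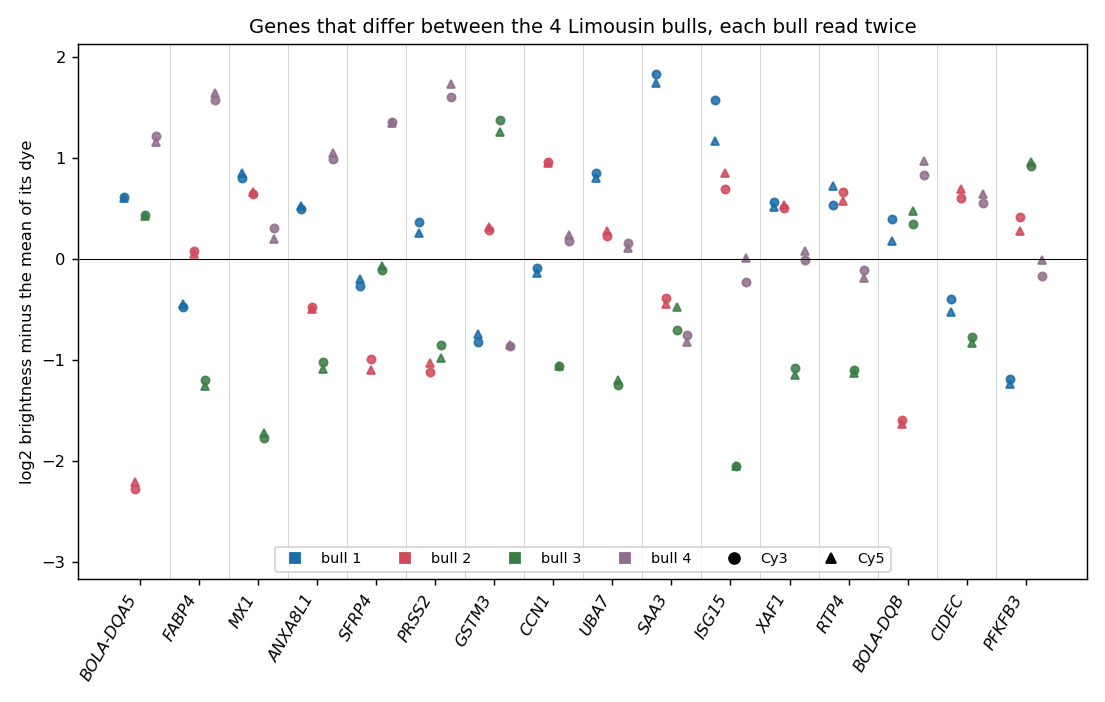
log2 brightness minus the mean of its dye for 16 genes that differ between the 4 Limousin bulls; colours mark bulls, circles Cy3 and triangles Cy5 readings. Bull 2 lies lowest in BOLA-DQA5 and BOLA-DQB, bull 3 lowest in MX1, UBA7, ISG15, XAF1 and RTP4, and bull 4 highest in FABP4.

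Among lists of cell types, most endothelial genes were highest in bull 2 and lowest in bull 3, and macrophage genes were lowest in bull 3. Of 13 endothelial genes, 10 were called between bulls, against 30.7% of all named genes. Of the same 13, bull 2 was the highest in 11 and bull 3 the lowest in 11. Over all 6502 named genes tested, bull 2 was the highest in 1720 and bull 3 the lowest in 1745. The median deviation of the endothelial list was 0.49 (log2) in bull 2 and -0.28 in bull 3. ROBO4 read 10.02, 11.09, 9.49 and 10.13 in bulls 1 to 4 (adjusted p = 0.0010 in limma), and the adhesion protein ESAM 8.34, 9.33, 8.14 and 8.74 (adjusted p = 0.0031). SOX18, a transcription factor of vessels, read 9.22, 10.08, 9.11 and 9.15 (adjusted p = 0.0053, and 0.68 under 1 of 8 alternatives). ENG, a co-receptor of transforming growth factor beta, read 9.47, 10.08, 9.44 and 9.60 (adjusted p = 0.035 in limma), and passed under 5 of 8 alternatives, with an adjusted p up to 0.69. Without bull 2 the count of called endothelial genes was 3, and without bull 3 it was 6. Macrophage genes were lowest in bull 3 in 11 of 11 tested, with a median deviation of -0.34 there, and 9 of them were called. C1QA read 11.64, 11.48, 10.64 and 11.83 (adjusted p = 0.0021, and 0.11 under 1 of 8 alternatives), LAPTM5 10.20, 10.31, 9.76 and 10.38 (adjusted p = 0.011) and SPI1 8.39, 8.45, 7.99 and 8.48 (adjusted p = 0.033). LAPTM5 passed under 6 of 8 alternatives (adjusted p up to 0.29 in limma) and SPI1 under 5 (up to 0.82). CD74, the class II invariant chain, read 9.76, 10.07, 9.71 and 10.31 and was not called (adjusted p = 0.14). Without bull 3, 2 of the 11 macrophage genes were called, and 4 without bull 2. Over all tested probes the share called was 9.85% without bull 3 and 5.55% without bull 2.

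Collagens were lowest in bull 1. COL1A1 read 12.57, 13.29, 13.72 and 13.77 in bulls 1 to 4 (log2, adjusted p = 0.0014 in limma), COL1A2 11.78, 12.37, 12.88 and 13.10 (adjusted p = 0.0022) and COL3A1 13.17, 13.60, 14.18 and 14.04 (adjusted p = 0.0041). SPARC followed at 14.22, 15.27, 14.96 and 15.07 (adjusted p = 0.0040). Of 8 collagen genes tested, 5 were called, against 30.7% of all named genes, and bull 1 was the lowest in 6. Fibroblast genes were highest in bull 4 in 8 of 10, with a median deviation of 0.36 there and 7 of 10 called. The fibroblast count was 3 without bull 4. Over all 6502 named genes tested, bull 1 was the lowest in 1866 and bull 4 the highest in 1498. Matrix genes had 14 of 20 called and smooth muscle and pericyte genes 8 of 11, beside the same 30.7%. The matrix count was 8 without bull 2, 9 without bull 3, 8 without bull 4, and 8 with processed signals scaled to the 75th percentile. In the same order, 5.55%, 9.85%, 16.2% and 18.9% of all tested probes were called.

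Immediate early genes, which respond within minutes to stress or handling of a tissue, were called in 14 of 17, against 30.7% of all named genes. Of the 17, bull 3 was the lowest in 12, but not in the 3 that follow. It was the lowest in 1745 of all 6502 named genes tested. DUSP1, a phosphatase that ends kinase signals, had bull 1 alone high, at 13.17 against 12.34, 12.46 and 12.48 (adjusted p = 0.0032 in limma). NR4A1, a nuclear receptor, read 11.76, 12.07, 12.32 and 12.79 (adjusted p = 0.0079), and KLF10, a zinc-finger factor, 12.19, 11.47, 12.26 and 12.12 (adjusted p = 0.012). Each lost its call under 1 of 8 alternatives, with adjusted p of 0.14 for DUSP1, 0.078 for NR4A1 and 0.72 for KLF10 in limma. FOSB, the brightest of the list, was not called (adjusted p = 0.40). Myogenic regulators had 7 of 9 called, and 2 of 9 without bull 2, where 5.55% of all tested probes were called. MYOD1 read 12.65, 13.22, 12.09 and 12.44 (adjusted p = 0.0025), and MYF6 was low in bull 4, at 11.80, 11.78, 11.71 and 11.12 (adjusted p = 0.0045). Each lost its call under 1 of 8 alternatives, with adjusted p of 0.055 for MYOD1 and 0.61 for MYF6 in limma.

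The brightest lists differed in their share of called genes. Over all tested probes the share called was 47.6% without bull 1, 5.55% without bull 2 and 9.85% without bull 3. It was 16.2% without bull 4 and 18.9% with processed signals scaled to the 75th percentile, against 26.3% in the main fit. The median deviation of fast-twitch genes stayed between -0.081 and 0.088 over the bulls, with 3 of 10 called (1 without bull 2), and that of skeletal muscle markers between -0.018 and 0.032, with 3 of 12 called (6 without bull 1). TCA cycle genes were called in 9 of 15, slow-twitch genes in 6 of 10 and respiratory chain genes in 18 of 44, against 30.7% of all named genes. Without bull 2 these counts were 0, 2 and 2, and without bull 3 they were 2, 3 and 3. The respiratory chain count was 34 without bull 1 and 2 with processed signals scaled to the 75th percentile, where the TCA count was 3, and the slow-twitch count was 2 without bull 4. Of all 44, bull 3 was the lowest in 27 and bull 2 the highest in 22, with median deviations of -0.13 and 0.14. Over all 6502 named genes tested, bull 3 was the lowest in 1745 and bull 2 the highest in 1720. Cytosolic ribosomal proteins were called in 22 of 55, with 36 without bull 1, 3 without bull 2, 4 without bull 3 and 5 with the 75th-percentile scaling. The part of vessel, macrophage and connective tissue content in the other differences between bulls was not tested.

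**Figure D5:**
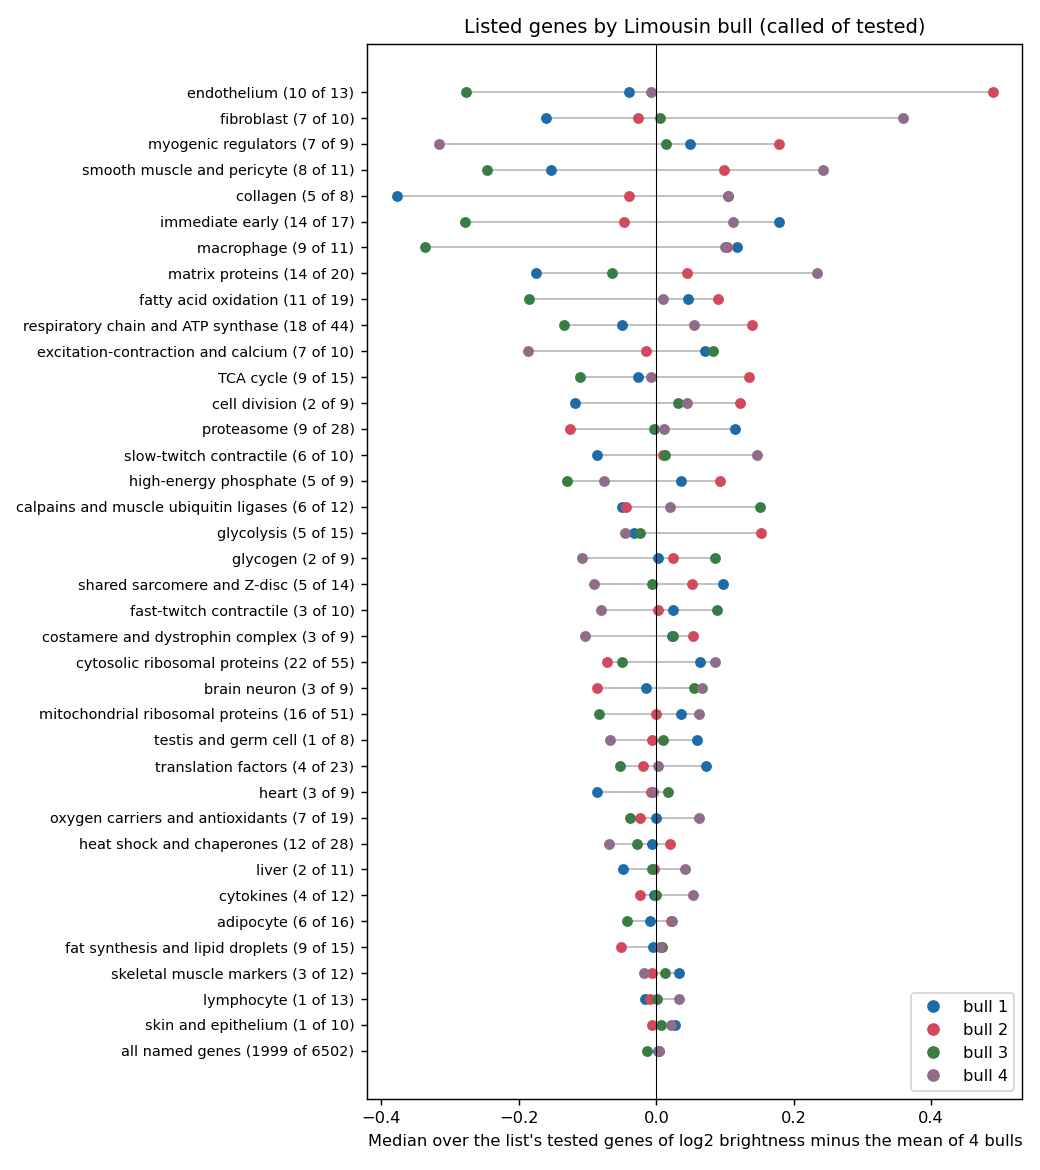
Median over each list's tested genes of log2 brightness minus the mean of the 4 Limousin bulls, one point per bull, for lists with at least 8 tested genes; numbers give called of tested genes. The endothelial list spreads most, from -0.28 in bull 3 to 0.49 in bull 2, and the median over all named genes lies near 0 in every bull.

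The brightness order of Limousin muscle was largely that of the other breeds. Of the 25 brightest genes, 22 were also among the 25 brightest in Hereford and 18 in Holstein-Friesian. Of the 1052 top-band probes, 92.5% ranked 95 or more in Hereford and 91.5% in Holstein-Friesian. In the direct ratios on the arrays, limma called 579 probes higher and 639 lower in Hereford than in Limousin (7.14% of 17061), and 512 higher and 588 lower in Holstein-Friesian (6.45%). Every array carried Limousin, so both comparisons share its bulls. With the Limousin bull as a block, the paired fit called 805 higher and 1048 lower in Hereford, and 833 higher and 967 lower in Holstein-Friesian.

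Of the 25 brightest genes, limma called 0 in Hereford, where 5 had an unadjusted p under 0.05 and the block called 1, and 9 were lower in Holstein-Friesian. PDLIM7 (-1.39 ± 0.22 SE, log2), PGK1 (-1.27 ± 0.25) and MB (-1.02 ± 0.17) differed most, with adjusted p of 0.014, 0.029 and 0.017 (n = 4 arrays). LDB3 (-0.88), ALDOA (-0.79), PGAM2 (-0.72), TNNC2 (-0.68), TPI1 (-0.65) and ENO3 (-0.59) were the others. Without Holstein-Friesian replicate 1, 2, 3 or 4 the count was 4, 3, 3 and 2. Holstein-Friesian was in Cy3 and Hereford in Cy5, and the ratios of bright probes depended on the correction for dye. With loess, which removes a dye difference that changes with brightness, the median ratio of the 25 genes was 0.26 in Hereford and -0.55 in Holstein-Friesian. With median centring, which does not remove it, the medians were 0.87 and -1.29, and 3 and 22 of the genes were called in those directions. Both shifts have Cy5 above Cy3, and dye and breed cannot be told apart here.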

How the data were processed

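RNA of the Limousin, Hereford and Holstein-Friesian bulls was measured on 8 2-colour Agilent arrays. The deposited intensity values are scanner output of Agilent Feature Extraction 10.7.3.1, per the submitters' processing notes: median spot and background signals, and processed signals already corrected for background and dye, per the file headers. The deposited log10 ratios of processed signals served as an alternative. Array probes carried RefSeq accessions, which were matched to current symbols in NCBI RefSeq's gene table; 8215 of 21475 probes had a name.

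Spots of 1 probe were averaged, without controls and, for signals and ratios, without spots flagged as outliers. Flagged spots were kept in the calls of well above background and in the normalization, and controls in the normexp correction. Levels are percentile ranks of processed signal. For the test between bulls, median signals were corrected with normexp (offset 50), which compresses low levels, loess within arrays and Aquantile between arrays, and probes well above background in at least 4 of 8 readings were fitted in limma 3.58.1 (R 4.3.3) on the log2 scale with bull and dye as terms and Benjamini-Hochberg adjustment. The dye comparison was fitted without the bull, and with it as a block. Breed ratios were fitted over all 8 arrays with and without the Limousin bull as a block. The pairing comes from the number in the sample titles, which recurs on both slides. Deviations of a bull's readings correlated with r of 0.40 to 0.87. Scripts were tested on simulated data. The number of bulls limits the precision, and a spot's depth is its signal over background.

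Named are the 25 brightest genes, the brightest, dimmest and undetected members of each list, other-tissue genes above background in all 8 readings, the genes of smallest p or widest range between bulls, the largest dye differences and the genes nearest rank 50. The members and lists were chosen with earlier results of these data known. Alternatives were other normalizations, filters and designs, and leaving out each bull or array. Some genes that the rule covers are not reported here. No probe sequences were used here.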

Additional observations from a re-analysis of the deposited data

Results flagged for a closer look

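In 81 sets of 4 bull values, 6 had a bull far from the others. The figure given is that bull's gap to the nearest bull as a share of the range. Chance flags about 1 in 20 independent, unselected groups. Many of the genes here were chosen for differing between these same bulls, and lists share genes. That rate can therefore not be set against the 6. Bull 1 stood above the others in SAA3 (0.856) and DUSP1 (0.834). Bull 2 stood above the others in SOX18 (0.888) and in the median of the glycolysis list (0.888). Bull 4 stood below the others in MYF6 (0.871), and bull 3 in the median of the macrophage list (0.961).

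Of the 25 brightest genes, 5 differed between the breeds' contrasts with Limousin, by a test of the difference itself in limma. The share called over all tested probes is not given for this test, so the 5 cannot be set against it. The Holstein-Friesian minus the Hereford value was -1.43 (log2) for MB (adjusted p = 0.034), -1.16 for TNNC2 (adjusted p = 0.023) and -0.924 for TPI1 (adjusted p = 0.036). It was -0.845 for LDB3 (adjusted p = 0.041) and -1.23 for LDHA (adjusted p = 0.040). The fit did not take the Limousin bull as a block, although the same Limousin bulls are in both contrasts. Breed and dye cannot be told apart in these differences.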

How the results depend on the processing

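Counts of probes above background and the overlap with the 25 brightest genes moved little under every alternative run. Levels of named genes moved by over 1 SD in 146 of 1180 comparisons, leave-outs apart. The count of probes called between bulls ran from 918 to 7865 when 1 bull was left out, and that of the dye difference, unblocked, from 0 to 7. The unblocked dye count was 2 with processed signals scaled to the 75th percentile and 2 with no filter on dim probes. With the bull as a replicate block the dye count was 798, and under those same alternatives 0 and 900; leaving out 1 bull gave 0 to 5674. The cause was not tested.

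With the replicate block, 1853 probes were called in Hereford and 1800 in Holstein-Friesian, with 1 of the 25 brightest genes higher in each. Median centring in place of loess gave 315 (87.0% higher) and 6678 (29.0% higher), with 3 of the 25 higher in Hereford and 22 lower in Holstein-Friesian. The deposited ratios gave 2129 in Holstein-Friesian (36.8% higher, against 46.5% in the main fit), and Hereford arrays alone gave 27. Leaving out 1 array gave 264 to 1121 in Hereford and 354 to 1414 in Holstein-Friesian, with 0 to 1 of the 25 higher in each and 2 to 9 lower in Holstein-Friesian. The causes were not tested. Dim probes, near background, have the least certain order.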
